A study of Mus musculus with 24 samples.

Results

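The enzymes that oxidise, reduce and conjugate foreign chemicals and reactive aldehydes were compared between lungs of mice carrying a TGF-beta1 transgene (TG) and wild-type lungs (WT) of 6 inbred strains. Members were chosen by gene symbol alone, as the cytochromes P450 (Cyp), glutathione S-transferases (Gst), flavin monooxygenases (Fmo), aldehyde dehydrogenases (Aldh), alcohol dehydrogenases (Adh), aldehyde oxidases (Aox), UDP-glucuronosyltransferases (Ugt), sulfotransferases (Sult), carbonyl reductases (Cbr) and epoxide hydrolases (Ephx) that had a probe set of their own. This gave 126 members of 13499 genes measured. Each gene was read from its probe set of highest mean, in log2 intensity, so that a difference of 1 is a 2-fold change. Levels are compared between mice for the same gene and not between genes, because each probe set has its own brightness.

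The series asked which genes modify lung fibrosis driven by TGF-beta1, the main fibrogenic cytokine, with C57BL6/J, A/J and AKR/J listed as fibrosis-prone in its design and 129 (129Si/J there, S129 in the labels), C3H (3C3H/J there) and Balb/cJ as resistant. Whole-transcript arrays were run on total RNA of freshly harvested right lung lobes from 24 mice, 17 TG and 7 WT. C57BL6/J had 2 mice of each genotype, and the other 5 strains each had 3 TG mice and 1 WT mouse. All mice, WT included, drank doxycycline for 2 weeks to switch on the transgene, so the WT lungs share the drug. Neither the promoter that drives the transgene nor the sex and age of the mice is given in the sources used here, and Tgfb1 itself was not analysed here, so the transgene could not be checked against the labels. The sample labels also carry a fibrosis code whose own key swaps the prone and resistant sets, and read by that key every prone minus resistant difference below would change sign.

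Breakdown of foreign chemicals is usually described in phases. P450s and flavin monooxygenases introduce an oxygen, epoxide hydrolases open epoxides, and alcohol dehydrogenases, aldehyde dehydrogenases, aldehyde oxidases and carbonyl reductases interconvert alcohols, aldehydes, ketones and acids, after which transferases attach glutathione, glucuronic acid or sulfate. In the mouse lung much of this capacity sits in the club cells of the small airways, with smaller shares in alveolar type 2 and endothelial cells, and several of the enzymes work on retinoids, fatty acids, oxysterols and amino acids rather than on foreign chemicals.

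The arrays were alike in scale, with array medians from 7.759 to 7.835, and mice of the same strain and genotype correlated at 0.992 to 0.997 over all genes in 17 pairs. The labels do not say more of how the replicates were obtained, so p-values measure the spread between these samples. Among lung markers, Sftpc of alveolar type 2 cells lay between 14.21 and 14.46 in TG and between 14.28 and 14.43 in WT lungs, while Scgb1a1 of club cells lay between 13.41 and 13.99 in TG and between 14.01 and 14.14 in WT lungs, without overlap. The table used here covers the genome in part. Of 210 RefSeq protein-coding genes whose symbols fit the families, 88 were not analysed here, among them all 27 on chromosome 7, all 9 on chromosome 9 and all but 2 of the 26 on chromosome 5, and with them Cyp1a1, Cyp2e1 and the club cell P450 Cyp2f2.

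One library stood apart. The first Balb/cJ TG mouse carried liver transcripts, with albumin (Alb) at 12.41 against 6.29 to 8.37 in the other 23 mice and Fgb, a fibrinogen chain, at 7.47 against 6.02 to 6.36. The mean of the 6 liver markers measured was 8.26 there and at most 6.88 elsewhere. Of the 126 members, 7 were highest in that mouse, and other mice held more, up to 15 in the 129 WT mouse. By a margin over 0.5, 2 members were highest there, as in the A/J WT mouse. Cyp2c39 read 6.66 in the first Balb/cJ TG mouse against 4.47 to 5.05 in the others. Cyp2d26 read 7.45 against 6.14 to 6.68, and Cyp2c29 read 5.56 against 4.82 to 5.08. By smaller margins Cyp2c70 (5.84 against 5.21 to 5.70), Cyp2j5 (5.30 against 4.82 to 5.16) and Cyp7a1 (5.09 against 4.71 to 5.01) were also highest there. Some other P450s known from liver lay within the range of the other mice, among them Cyp2c37 (7.87 against 7.52 to 8.07) and Cyp2c50 (5.17 against 4.82 to 5.30). Leaving the mouse out kept 43 of the 44 members called below and reduced the calls within Balb/cJ from 7 to 4. Leaving out the second or the third Balb/cJ TG mouse in its place gave 5 and 10 calls.

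**Figure D1:**
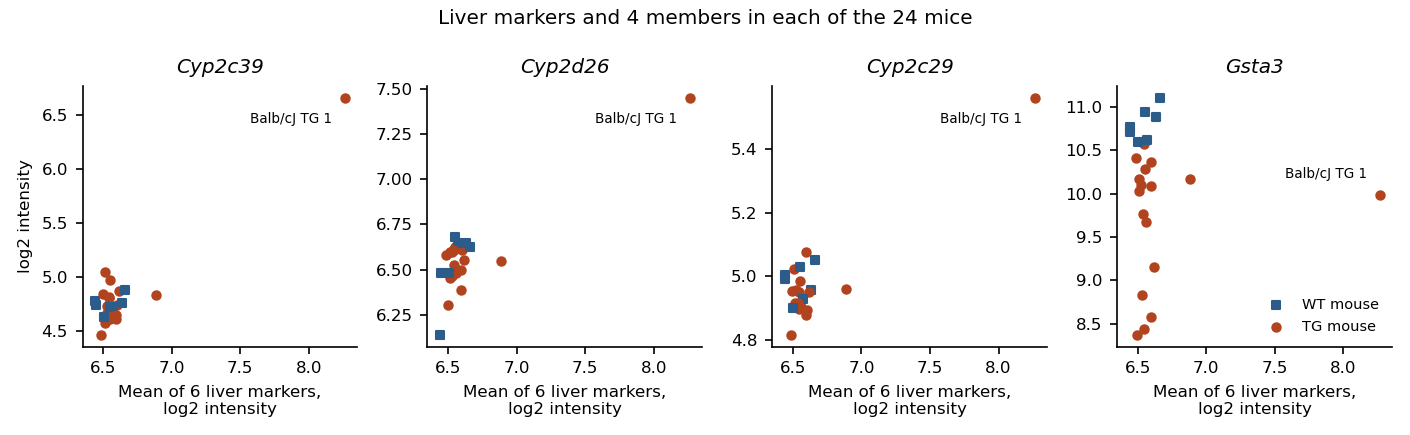
Level of 4 members (log2 intensity, vertical axis) against the mean of the 6 liver markers measured (log2 intensity, horizontal axis), 1 point per mouse, 7 WT mice as squares and 17 TG mice as circles. The first Balb/cJ TG mouse lies alone at 8.26 on the horizontal axis and is the highest mouse for Cyp2c39, Cyp2d26 and Cyp2c29, while its Gsta3 level of 9.98 lies within the range of the TG mice.

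Over all strains, with strain as a term in limma and Benjamini-Hochberg adjustment over all genes, 44 of the 126 members (34.9%) differed between TG and WT at an adjusted p under 0.05. The background was 26.7% of all genes measured. Of the 44, 36 members fell (28.6% of the members, against 13.5% of all genes) and 8 rose (6.35%, against 13.2% of all genes). The median change of the 126 members was -0.06, and that of all genes was -0.001. In bulk lung RNA, fewer cells of a type and less RNA per cell cannot be told apart.

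Brighter genes were called more often in the whole table, so the members were also counted by brightness. Above the level of the median gene lay 42 members, of which 23 fell, 5 rose and 14 were not called. That is 66.7% called, where 37.5% of all such genes were called. Falls alone were 54.8% of these members and 18.6% of such genes. Of the 84 dimmer members, 13 fell (15.5%, against 8.34% of dim genes) and 3 rose, so that 19.0% were called against 15.9% of dim genes. Much of the P450 superfamily lay on the dim side, with 10 of 60 Cyp genes above the median gene, while 12 of 17 Gst and 10 of 16 Aldh genes were above it.

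**Figure D2:**
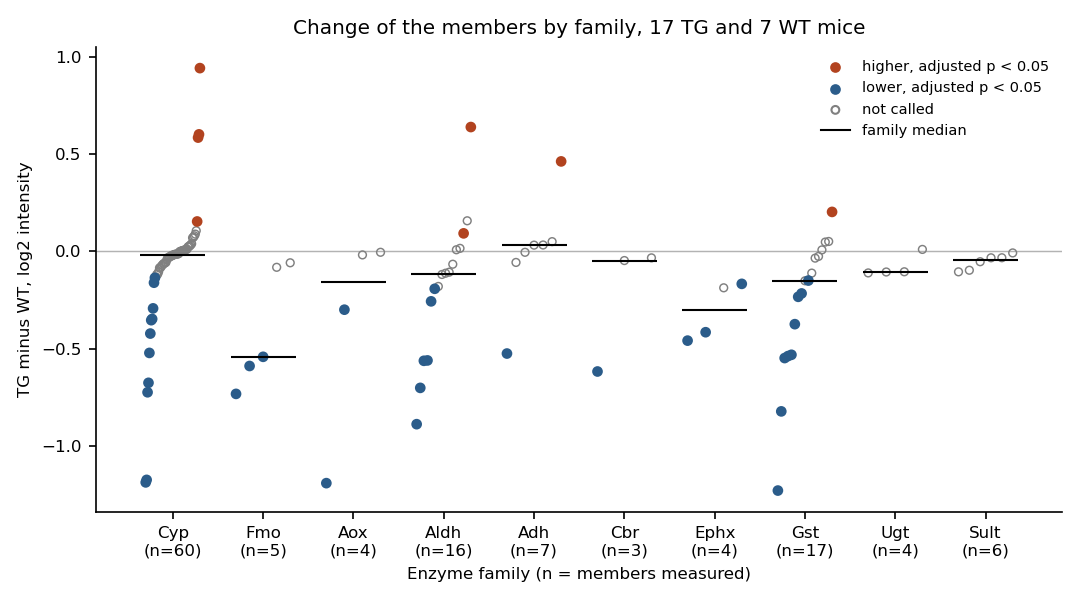
Change of each of the 126 members, TG minus WT in log2 intensity over 17 TG and 7 WT mice, by enzyme family, with a bar at each family median. Filled points passed an adjusted p of 0.05. The Fmo and Ephx families have the lowest medians, -0.54 and -0.30, and the Ugt and Sult families hold no member called over all strains.

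Each TG lung lay below each WT lung, whatever the strain, for 13 members (10.3%, against 0.615% of all genes). These were Gsta3, Aox3, Cyp4b1, Cyp4f15, Aldh1a7, Gstm1, Fmo1, Cbr2, Aldh6a1, Fmo5, Adh7, Cyp2j9 and Ephx1. Cyp21a1 was the 1 member with each TG lung above each WT lung (0.794%, against 1.02% of all genes). The falls of Gsta3, Aox3, Cyp4b1 and Cyp4f15 exceeded 2-fold, as did 0.43% of all genes in either direction, and no member rose as far.

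Among the P450s, 11 of 60 fell and 4 rose, and the family median was -0.02. Beside this and the family counts below stand the shares of all genes, 13.5% lower and 13.2% higher. Among genes above the median gene 18.6% fell, and among dimmer genes 8.34%. Cyp4b1 is abundant in lung and turns protoxicants such as ipomeanol into reactive products. It measured 10.37, 12.02 and 12.37 in TG lungs (lowest, median and highest of 17) and 12.65, 12.84 and 13.02 in the 7 WT lungs. The groups did not overlap, and the lowest TG values were those of C57BL6/J and A/J. Its change was -1.19 ± 0.14 (SE throughout, adjusted p = 2.8e-06), 2.28-fold lower.

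Cyp4f15, a fatty acid and leukotriene hydroxylase, measured 6.49, 6.85 and 7.09 in TG and 7.77, 7.88 and 8.60 in WT lungs. The TG values were close together in all strains, and the A/J WT mouse was the highest at 8.60. The change was -1.18 ± 0.08 (adjusted p = 2.0e-09). Cyp4f39, which makes the hydroxylated very long fatty acids of skin ceramides, went the other way. It measured 8.70, 9.55 and 9.80 in TG and 8.16, 8.56 and 9.30 in WT lungs, and rose by 0.94 ± 0.09 (adjusted p = 1.9e-07). The ranges overlapped through the third Balb/cJ TG mouse at 8.70, below the C3H WT mouse at 9.30 and the second C57BL6/J WT mouse at 8.74. The other TG mice lay at or above 9.33. Both genes lie on chromosome 17 in a run of Cyp4f genes, with 4 other protein-coding genes between them, all Cyp4f. Of the 8 Cyp4f members, 2 fell and 1 rose, and the probes of such close copies can pick up each other's transcripts.

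The other P450s of large change were fatty acid and drug oxidases or steroid enzymes. Cyp2d22, a drug-oxidising P450, measured 10.10, 10.70 and 11.25 in TG and 11.14, 11.27 and 11.72 in WT lungs, a fall of 0.72 on the log2 scale (SE 0.06, adjusted p = 3.0e-08) with no overlap within any strain. It was the 1 called member of 10 Cyp2d genes. Cyp2j9, which oxidises arachidonic acid, measured 7.53, 7.94 and 8.18 in TG and 8.26, 8.39 and 8.74 in WT lungs (change -0.52 ± 0.07, adjusted p = 3.9e-06). Cyp4a12b, a fatty acid hydroxylase, varied widely in both groups, with 5.89, 6.97 and 7.96 in TG and 6.17, 7.25 and 8.48 in WT lungs. Its change of -0.68 ± 0.19 (adjusted p = 0.0097) leaned on the A/J WT mouse, the highest at 8.48. Without that mouse the change was -0.44 and was no longer called. Of 13 Cyp2c members, 1 fell, Cyp2c23.

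The other P450s that rose were 2 steroid or sterol enzymes and a fatty acid hydroxylase. Cyp7b1, which hydroxylates oxysterols, measured 7.92, 8.59 and 9.22 in TG and 7.78, 8.04 and 8.34 in WT lungs (change 0.60 ± 0.12, adjusted p = 0.0006). Cyp21a1, the adrenal steroid hydroxylase, measured 6.46, 6.63 and 8.53 in TG and 5.99, 6.29 and 6.40 in WT lungs (change 0.58 ± 0.15, adjusted p = 0.0052). One A/J TG mouse reached 8.53, while the other TG mice lay at or below 7.41. Cyp4a31 rose by 0.15 ± 0.05 (adjusted p = 0.029) at a level of at most 4.75 in every mouse. Of the 12 members of the steroid, sterol and retinoid subfamilies Cyp7, Cyp11, Cyp17, Cyp21, Cyp26, Cyp27, Cyp39 and Cyp46, 2 rose and 1 fell.

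All 3 brighter flavin monooxygenases fell. Fmo1 measured 12.07, 12.64 and 13.05 in TG and 13.08, 13.26 and 13.49 in WT lungs, without overlap (change -0.73 ± 0.07, adjusted p = 2.8e-07). Fmo2, the form known as the lung enzyme, measured 11.69, 12.58 and 12.92 in TG and 12.74, 13.02 and 13.24 in WT lungs (change -0.59 ± 0.10, adjusted p = 0.00011). The A/J and C57BL6/J TG mice were lowest for Fmo2, at 11.69 to 12.06. Fmo5 fell by 0.54 (SE 0.07, adjusted p = 2.6e-06) without overlap, and the other 2 members, Fmo4 and Fmo9, were not called. Fmo1 and Fmo2 are next to each other on chromosome 1.

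Aldehyde oxidases are molybdenum enzymes that oxidise aldehydes and nitrogen heterocycles. Aox3 measured 9.42, 10.03 and 10.36 in TG and 10.98, 11.17 and 11.42 in WT lungs. The groups were parted in every strain, and the highest TG mouse lay below the lowest WT mouse. The change was -1.19 ± 0.09 (adjusted p = 1.2e-08). Its neighbour on chromosome 1, Aox1, changed by -0.30 ± 0.06 (adjusted p = 0.00085). Aox2 and Aox4 were not called.

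**Figure D3:**
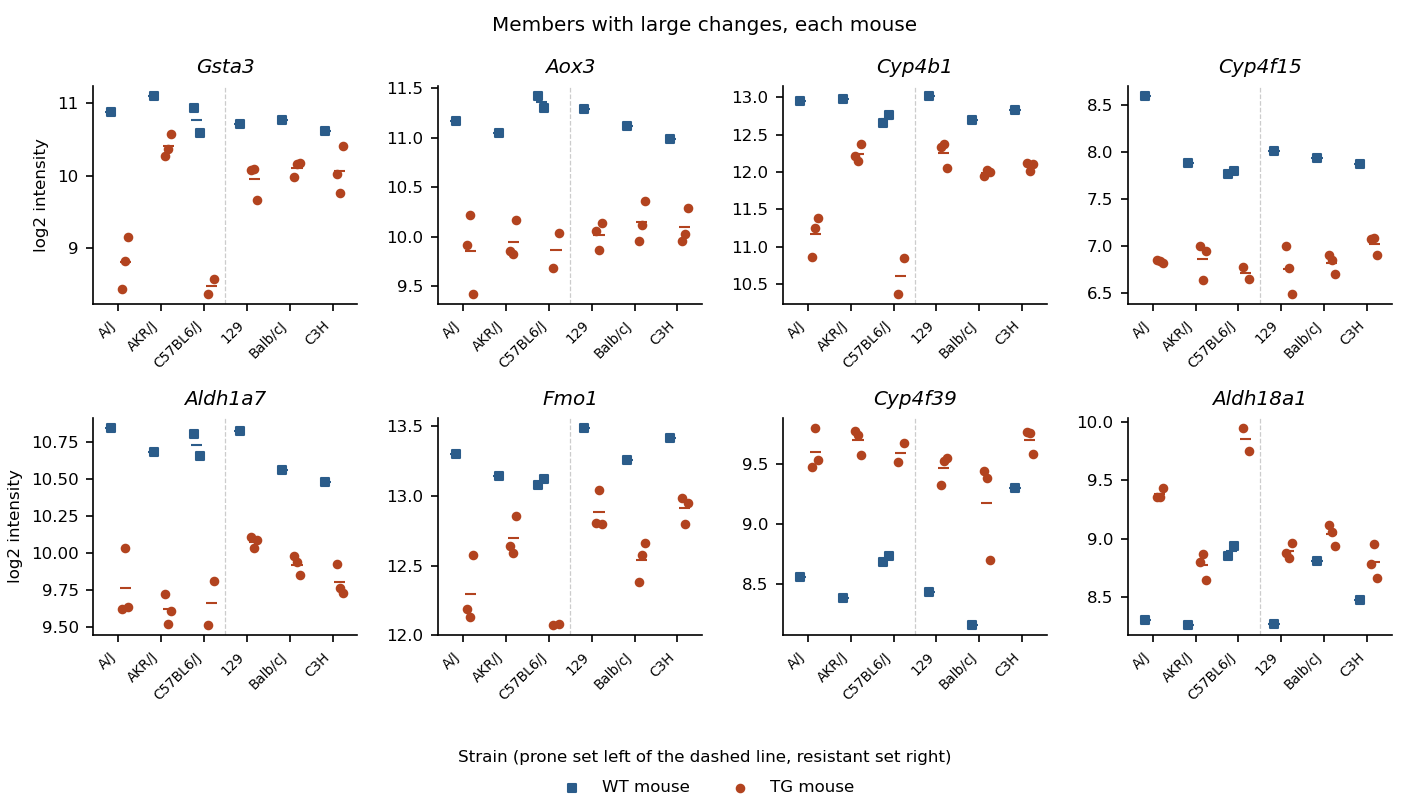
Log2 intensity of 8 members in each mouse, by strain, with WT mice as squares, TG mice as circles and a bar at each group mean; the dashed line parts the prone strains (left) from the resistant ones. For Aox3, Cyp4f15 and Aldh1a7 the TG mice lie below the WT mice in each strain, and the TG mice of A/J and C57BL6/J lie apart from the rest for Gsta3 (8.37 to 9.15) and Cyp4b1 (10.37 to 11.38).

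Of 16 aldehyde dehydrogenases, 6 fell and 2 rose. Aldh1a1, a retinal dehydrogenase, measured 11.61, 12.32 and 12.69 in TG and 12.62, 12.69 and 12.89 in WT lungs (change -0.56 ± 0.09, adjusted p = 5.7e-05). Its close copy and neighbour on chromosome 19, Aldh1a7, measured 9.51, 9.81 and 10.11 in TG and 10.48, 10.68 and 10.85 in WT lungs, without overlap (change -0.89 ± 0.07, adjusted p = 4.8e-09). Their sequences are alike enough that each probe set may read part of the other's transcript.

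Aldh3a1, which oxidises aldehydes from lipid peroxidation, measured 6.95, 7.26 and 7.47 in TG and 7.42, 7.98 and 8.26 in WT lungs, and the groups overlapped through the 129 WT mouse at 7.42. It changed by -0.70 ± 0.09 (adjusted p = 9.8e-06). Aldh6a1, a mitochondrial enzyme of valine breakdown, measured 9.43, 9.86 and 10.14 in TG and 10.19, 10.31 and 10.46 in WT lungs (change -0.56 ± 0.06, adjusted p = 2.6e-07). Aldh18a1, which the symbol rule brings in and which starts proline synthesis from glutamate, rose. It measured 8.65, 8.95 and 9.95 in TG and 8.26, 8.48 and 8.94 in WT lungs, and each TG mouse exceeded the WT mice of its own strain (change 0.64 ± 0.08, adjusted p = 3.5e-06). Aldh7a1, of lysine breakdown, rose by 0.09 ± 0.03 (adjusted p = 0.047), a call lost under 24 of the alternatives tried.

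Alcohol dehydrogenases next to each other on chromosome 3 moved in opposite directions. Adh1, the main ethanol and retinol dehydrogenase of the family, measured 12.20, 12.69 and 13.01 in TG and 12.07, 12.23 and 12.43 in WT lungs and rose by 0.46 ± 0.08 (adjusted p = 0.00017). The AKR/J TG mice, at 12.20 to 12.56, lay around their WT mouse at 12.33. Adh7, the epithelial retinol dehydrogenase, measured 6.94, 7.23 and 7.50 in TG and 7.58, 7.81 and 8.06 in WT lungs, without overlap, and changed by -0.53 ± 0.06 (adjusted p = 9.9e-07). The other 5 Adh members were not called.

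Of the 3 carbonyl reductases, Cbr2, the lung carbonyl reductase, fell. It measured 13.14, 13.64 and 13.91 in TG and 14.11, 14.12 and 14.27 in WT lungs, without overlap (change -0.62 ± 0.06, adjusted p = 4.2e-07). Among the epoxide hydrolases 3 of 4 fell, and the family median was -0.30. Ephx1, the microsomal enzyme that opens epoxides made by P450s, measured 10.80, 10.99 and 11.37 in TG and 11.40, 11.47 and 11.69 in WT lungs, without overlap (change -0.46 ± 0.05, adjusted p = 2.0e-06). Ephx2, the soluble enzyme that acts on fatty acid epoxides, was not called (change -0.19, adjusted p = 0.061).

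Of 17 glutathione S-transferases, 9 fell and 1 rose. Gsta3, of the alpha class that detoxifies aflatoxin epoxide in mice, had the largest change of all 126 members. It measured 8.37, 10.03 and 10.58 in TG and 10.60, 10.77 and 11.10 in WT lungs. Across strains the groups were parted by a small gap, between the highest AKR/J TG mouse (10.58) and the lower C57BL6/J WT mouse (10.60). Within strains the gap was wide in A/J and C57BL6/J and narrowest in C3H (TG at most 10.42, WT 10.61). The change was -1.23 ± 0.18 (adjusted p = 3.3e-05).

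The mu class was the largest class measured, and 4 of its 7 members fell, with none higher. Gstm1 measured 10.73, 11.95 and 12.28 in TG and 12.39, 12.50 and 12.70 in WT lungs, without overlap (change -0.82 ± 0.11, adjusted p = 1.1e-05). Gstm6 measured 6.01, 6.38 and 7.05 in TG and 6.38, 6.89 and 7.43 in WT lungs, with overlap (change -0.54 ± 0.11, adjusted p = 0.00059). Gstm3 changed by -0.53 ± 0.08 (adjusted p = 5.7e-05) on the probe set used and by -0.26 on its other one. Gstm4 gave no call, at 9.70, 9.83 and 10.53 in TG and 9.71, 9.86 and 10.43 in WT lungs. These genes form a cluster of near copies on chromosome 3, so part of a change in one probe set may belong to another gene of the cluster.

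Gsto1, of the omega class that acts on arsenicals and dehydroascorbate, measured 9.29, 9.57 and 10.30 in TG and 9.89, 10.24 and 11.03 in WT lungs (change -0.55 ± 0.11, adjusted p = 0.00078), with overlap between the groups. In the pi class, Gstp1 fell by 0.22 (adjusted p = 0.0056), and Gstp3, parted from it on chromosome 19 by Gstp2 alone, rose by 0.20 ± 0.07 (adjusted p = 0.026). Over all strains limma called none of the 4 Ugt and none of the 6 Sult members, and at an unadjusted p under 0.05 it gave 1 Ugt member (Ugt3a2) and 0 Sult members. Within single strains it called Ugt3a2 lower in C57BL6/J, Sult1c1 lower in A/J and Sult6b1 lower in C57BL6/J. All lay below the median gene, and their changes ran from -0.11 to 0.01. Ugt8a, which makes galactosylceramide, measured 6.32 to 7.15 in TG and 6.58 to 7.11 in WT lungs, and Ugt3a2 changed by -0.11 ± 0.05. Sult4a1, the neuronal sulfotransferase, measured 6.29 to 6.77 in TG and 6.30 to 6.70 in WT lungs, and Sult1c2 changed by -0.11 ± 0.07.

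Promoter sequences were at hand for 93 of the 126 members. They were searched on both strands for TGACNNNGC, the core of the antioxidant response element bound by NRF2, and for GCGTG, the core of the xenobiotic response element bound by the aryl hydrocarbon receptor, since both elements are known to drive genes of these families. The windows are the 250 bases before the RefSeq start of the gene (GRCm38.p6), read in the direction of the gene, with matches in capitals. The 4 shown belong to members with large changes, 3 that fell and 1 that rose.
Gsta3, chr1:21240335-21240584, plus strand: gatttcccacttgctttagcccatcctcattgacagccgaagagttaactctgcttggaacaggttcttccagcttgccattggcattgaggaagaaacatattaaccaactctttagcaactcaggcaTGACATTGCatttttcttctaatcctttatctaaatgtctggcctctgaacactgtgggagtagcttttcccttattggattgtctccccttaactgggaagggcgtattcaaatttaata
Aox3, chr1:58112886-58113135, plus strand: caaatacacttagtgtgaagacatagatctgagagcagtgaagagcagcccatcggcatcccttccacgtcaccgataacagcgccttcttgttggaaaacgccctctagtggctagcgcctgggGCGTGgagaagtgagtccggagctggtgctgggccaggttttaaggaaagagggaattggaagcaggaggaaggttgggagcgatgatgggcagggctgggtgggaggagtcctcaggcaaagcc
Cyp4f15, chr17:32685409-32685658, plus strand: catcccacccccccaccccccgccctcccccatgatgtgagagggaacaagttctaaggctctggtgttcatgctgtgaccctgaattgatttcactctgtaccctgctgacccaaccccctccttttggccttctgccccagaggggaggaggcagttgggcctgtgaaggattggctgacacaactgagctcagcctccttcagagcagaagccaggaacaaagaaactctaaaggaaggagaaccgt
Cyp4f39, chr17:32452473-32452722, plus strand: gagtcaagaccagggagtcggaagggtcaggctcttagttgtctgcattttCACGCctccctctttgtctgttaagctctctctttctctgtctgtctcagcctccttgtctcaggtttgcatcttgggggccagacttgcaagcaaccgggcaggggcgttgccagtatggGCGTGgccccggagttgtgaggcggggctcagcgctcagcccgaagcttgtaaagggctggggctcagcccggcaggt

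The Gsta3 window holds 1 match to TGACNNNGC, which begins 121 bases before the start. The Aox3 window holds 1 match to GCGTG, 125 bases before it, and the Cyp4f39 window holds 2, at 199 and 78 bases. Cyp4f15 holds neither run of letters in this window. Over the members, 4 of 93 windows (4.3%) held TGACNNNGC, against 10.1% of the 27025 promoters in the table and 11.1% of the 10420 promoters of genes measured. GCGTG was held by 25 of 93 (26.9%), against 28.2% of all promoters and 36.8% of those of genes measured. Of the 28 lower members with a window, 1 held TGACNNNGC and 9 (32.1%) held GCGTG. Of the 4 higher members, 3 held GCGTG and 0 held TGACNNNGC. A match is a run of letters and not a measured binding site.

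The question of the design was whether strains differ, and most of the lower members had a negative change in each of them. Of the 126 members, 35 (27.8%) were called and had the same sign of change in all 6 strains (30 lower and 5 higher), against 18.0% of all genes. As a share of the called, that is 79.5% of the members and 67.4% of all genes. The median change of the 36 lower members was -0.91 in A/J, -0.67 in C57BL6/J, -0.36 in 129, -0.34 in AKR/J, -0.34 in Balb/cJ and -0.30 in C3H. These medians describe members picked on the same mice.

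Within single strains 32 members (25.4%) were called in A/J, where 14.9% of all genes were, and 32 (25.4%) in C57BL6/J, where 14.3% were. In 129 there were 13 (10.3%, against 2.95%), in AKR/J 8 (6.35%, against 2.11%), in Balb/cJ 7 (5.56%, against 2.26%) and in C3H 3 (2.38%, against 0.822%). Falls made up 26 of the 32 calls in A/J (20.6% of the members, against 8.08% of all genes) and 27 of 32 in C57BL6/J (21.4%, against 7.39%). They made up 11 of 13 in 129 (8.73%, against 1.39%), 6 of 8 in AKR/J (4.76%, against 0.57%), 6 of 7 in Balb/cJ (4.76%, against 1.27%) and 3 of 3 in C3H (2.38%, against 0.333%). All strains but C57BL6/J rest on 1 WT mouse, whose spread was taken from the fit over all groups. Leaving out 1 TG mouse of the strain changed the count to between 4 and 10 in AKR/J, between 4 and 10 in Balb/cJ and between 0 and 2 in C3H, where the count of 0 came with 19 members at an unadjusted limma p under 0.05.

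Cyp4f15 and Aldh1a7 were called lower in each of the 6 strains. Cyp4f15 changed by -1.76 in A/J, -1.02 in AKR/J, -1.07 in C57BL6/J, -1.26 in 129, -1.11 in Balb/cJ and -0.86 in C3H. Aldh1a7 changed by -0.64 in Balb/cJ to -1.08 in A/J. Aox3 and Cyp2d22 were called lower in 5 strains, with C3H the exception (-0.89 and -0.54). Cyp4f39 was called higher in 5 strains, by 0.88 to 1.31, and measured 0.40 in C3H, whose WT mouse was the highest of the WT group. Aldh18a1 was called higher in A/J, AKR/J, C57BL6/J and 129. Aldh1b1, a mitochondrial aldehyde dehydrogenase, was called in C3H alone, with the WT mouse at 7.24 and the TG mice at 6.61 to 6.83, and not over all strains (change -0.12).

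**Figure D4:**
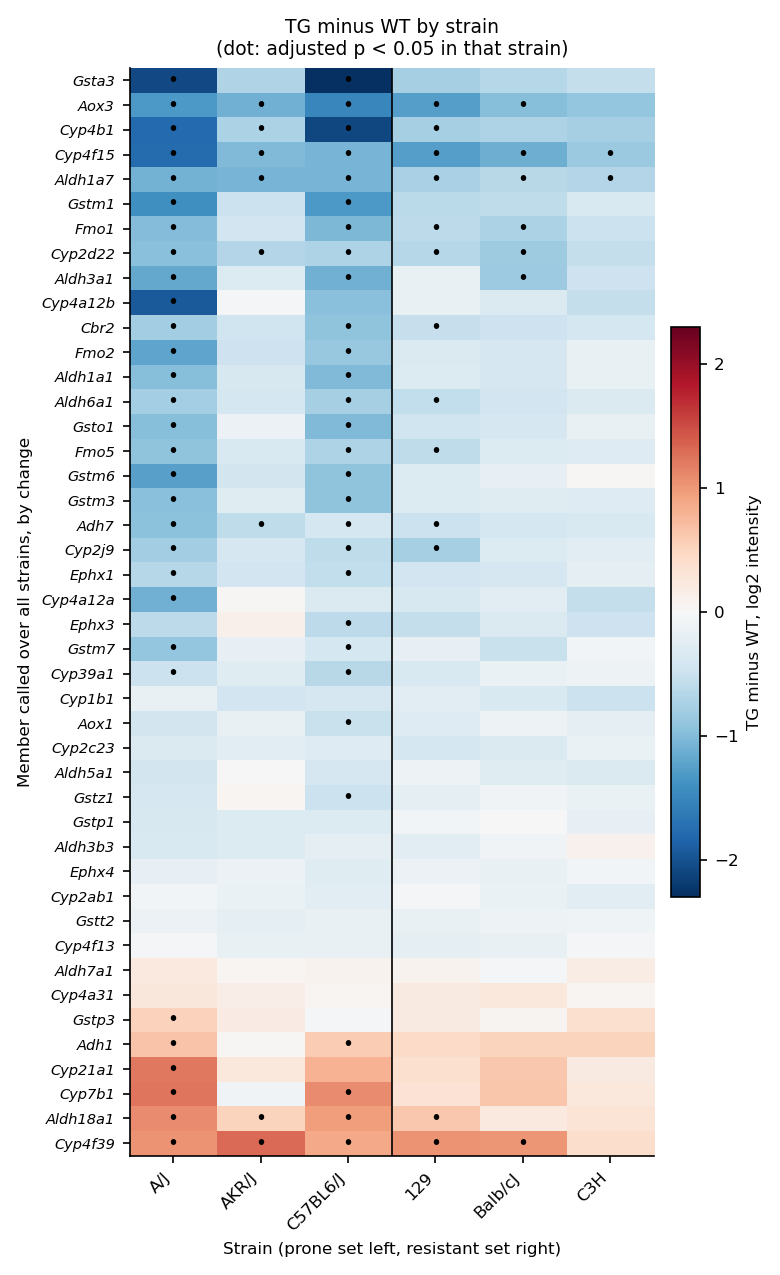
Change of the 44 called members in each strain, TG minus WT in log2 intensity (colour scale, blue lower and red higher); dots mark an adjusted p under 0.05 in that strain. Among the members lower over all strains, 24 are also called lower in A/J and 25 in C57BL6/J. The columns of A/J and C57BL6/J hold the deepest blues, down to -2.29 for Gsta3 in C57BL6/J.

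The difference between strains was then tested itself, with limma's moderated F test of the 6 strain effects. It called 6 members (4.76%, against 1.34% of all genes), namely Cyp4b1, Gstm6, Aldh3a1, Gsta3, Aldh18a1 and Cyp7b1. Cyp4b1 fell from 12.95 to 10.86, 11.26 and 11.38 in A/J and from 12.65 and 12.76 to 10.37 and 10.86 in C57BL6/J. In AKR/J it went from 12.97 to 12.15, 12.22 and 12.37. The changes were -1.78 in A/J, -2.09 in C57BL6/J and -0.70 to -0.76 in the other 4 strains (adjusted p of the strain difference 0.0092).

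Gsta3 read 10.88 in the A/J WT mouse and 8.44, 8.83 and 9.15 in the A/J TG mice, and 10.94 and 10.60 against 8.37 and 8.58 in C57BL6/J. In Balb/cJ it read 10.77 against 9.98, 10.17 and 10.17. Its changes were -2.08 and -2.29 in A/J and C57BL6/J and -0.76 to -0.54 in the other 4 (adjusted p = 0.018). Without the first WT or the first TG mouse of C57BL6/J, this call was lost (adjusted p up to 0.066).

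For Gstm6 the WT mice themselves differed, at 7.43 in A/J, 7.28 in AKR/J, 7.12 and 6.89 in C57BL6/J, 6.68 in Balb/cJ, 6.44 in 129 and 6.38 in C3H. The TG mice of A/J (6.01, 6.17 and 6.35) lay near those of 129 (6.02, 6.15 and 6.21), and the C3H TG mice (6.38, 6.39 and 6.47) lay at or just above their WT mouse. The changes ran from -1.25 in A/J to 0.03 in C3H (adjusted p = 0.0096), a call lost without the A/J WT mouse (adjusted p = 0.077). Without that mouse A/J had no WT level, so the test ran without the A/J effect. Aldh3a1 changed by -1.18 in A/J, -1.11 in C57BL6/J and -0.83 in Balb/cJ and by -0.17 in 129, where the WT mouse was already low at 7.42 (adjusted p = 0.013). Leaving out any 1 mouse kept the calls of Cyp4b1 and Aldh3a1, but with array weights that of Aldh3a1 was lost.

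The rises that depended on strain were largest in A/J and C57BL6/J as well. Aldh18a1 read 8.30 in the A/J WT mouse and 9.36, 9.36 and 9.43 in the TG mice, and 8.81 against 8.94, 9.06 and 9.12 in Balb/cJ (adjusted p = 0.031). Cyp7b1 read 7.78 in the A/J WT mouse and 8.91, 9.02 and 9.12 in the TG mice, and 8.11 against 7.95, 8.06 and 8.07 in AKR/J (adjusted p = 0.039). Both calls were frail. Leaving out 1 mouse lost the first in 8 of 24 cases, with the WT mouse of A/J or of Balb/cJ or either WT mouse of C57BL6/J among them, and the second in 12 of 24. In a strain with 1 WT mouse, leaving that mouse out takes the strain out of the F test.

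In the prone strains together 42 members were called (6 higher and 36 lower), with 23.5% of all genes called and 11.5% lower. In the resistant strains there were 25 (4 higher and 21 lower), with 10.7% of all genes called and 5.78% lower. Of the 36 members lower over all strains, 32 (88.9%) had the larger fall in the prone set, with medians of -0.65 and -0.35. Among all genes lower over all strains 68.6% did, with medians of -0.26 and -0.20. The difference between the sets was called for 4 members (3.17%, against 0.474% of all genes). The prone minus resistant difference was -1.03 ± 0.20 for Gsta3 (adjusted p = 0.039), -0.79 ± 0.15 for Cyp4b1 (0.039), -0.71 ± 0.11 for Gstm6 (0.015) and 0.46 ± 0.09 for Aldh18a1 (0.039).

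AKR/J, although of the prone set, lay within the range of the resistant strains for 3 of these. In AKR/J Gsta3 changed by -0.70, Cyp4b1 by -0.73 and Aldh18a1 by 0.52, where the resistant strains ran from -0.76 to -0.54, from -0.76 to -0.70 and from 0.23 to 0.62. Gstm6 changed by -0.43 in AKR/J, below the -0.32 to 0.03 of the resistant strains. With the 6 strains as the unit, an exact two-sided permutation test of 3 against 3 gave p = 0.2 for Gsta3, 0.3 for Cyp4b1, 0.1 for Gstm6 and 0.2 for Aldh18a1, where 0.1 is the smallest p this design allows. Leaving out 1 mouse lost the call of Gsta3 in 12 of 24 cases, of Cyp4b1 in 12, of Gstm6 in 2 (the WT mouse of A/J or of C3H) and of Aldh18a1 in 14. Without the AKR/J WT mouse 12 members were called, and without the A/J or the C3H WT mouse 0 were, where 21 and 23 members had an unadjusted limma p under 0.05. Each of these is the 1 WT mouse of its strain, and leaving it out takes the whole strain out of the difference. Such cases compare other sets of strains and do not show the weight of a single array.

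Levels in the TG lungs differed between strains for 42 members (33.3%), close to the 31.4% of all genes. Of these 28 were also called between TG and WT and 14 were not. Gstm4 showed a strain level without a transgene change. The A/J mice read 10.43 (WT) and 10.31, 10.43 and 10.53 (TG), and all other mice read between 9.70 and 10.01 (adjusted p of the strain difference 5.3e-05). For Cyp4b1, Gsta3, Aldh1a1, Fmo2 and Gstm1 the TG mice of A/J and C57BL6/J were the lowest. Strain differences in the probed sequence can also change the signal of a probe set, and that was not tested.

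**Figure D5:**
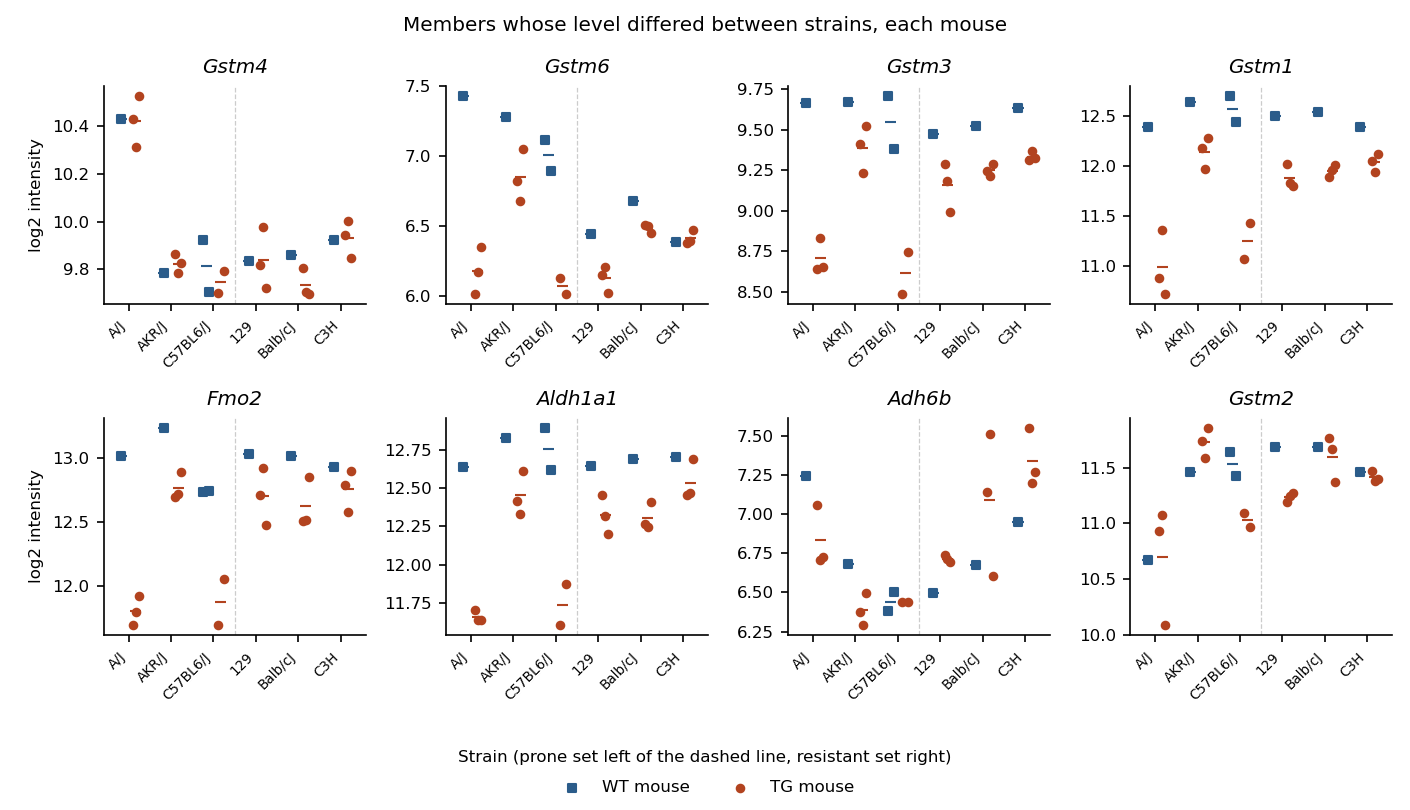
Log2 intensity of 8 members whose level differed between strains among the TG mice, in each mouse, with WT mice as squares, TG mice as circles and bars at group means. Gstm4 is high in all 4 A/J mice, Gstm6 differs among the WT mice, and Gstm3, Gstm1, Fmo2 and Aldh1a1 are low in the TG mice of A/J and C57BL6/J; Adh6b and Gstm2 were picked after their values were seen.

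Partner genes outside the 10 families were counted in lists. Of 22 measured reductases and redox partners, 5 rose and 6 fell (median -0.0), the largest change being that of Akr1c14, an aldo-keto reductase, at -0.82 ± 0.19 (adjusted p = 0.0020). Of 14 other conjugation genes, 4 rose and 4 fell, with Tst, a sulfur transferase, at -0.49 ± 0.09 (adjusted p = 0.00019). Of 21 glutathione genes and NRF2 targets, 4 rose and 6 fell. Me1, which supplies NADPH, rose by 0.68 ± 0.07, Gpx2, a glutathione peroxidase, changed by -0.67 ± 0.11 and Cat, catalase, by -0.57 ± 0.07 (adjusted p = 4.0e-07, 9.1e-05 and 5.0e-06). Of 15 xenobiotic receptors and partners, Nr3c1, the glucocorticoid receptor, fell by 0.12 and none rose. Of 12 transporters, Slc15a2, a peptide carrier, rose by 0.62 and 2 fell.

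Markers of club and endothelial cells moved too, and those of alveolar type 2 cells for the most part did not pass the test. Of 9 club cell markers measured of 11, 5 fell and none rose (median -0.34), and their mean level ran from 10.05 to 10.78 in TG and from 10.04 to 11.54 in WT lungs. Scgb1a1 changed by -0.29 ± 0.05, Scgb3a2 by -0.65 ± 0.14, Gabrp by -1.24 ± 0.10 and Pigr by -1.23 ± 0.13. Bpifa1 and Bpifb1, secreted airway proteins of the same list, were not called and lay on the other side, at 0.27 ± 0.36 and 0.50 ± 0.26. By strain the mean of the club cell list changed by -1.12 in A/J, -0.54 in C57BL6/J, -0.40 in AKR/J, -0.40 in Balb/cJ, -0.30 in C3H and 0.33 in 129. The value in 129 holds Bpifa1 at 2.43 and Bpifb1 at 2.24, and the other 7 markers ran there from -0.98 (Gabrp and Pigr) to 0.54 (Scgb3a1). Of 9 endothelial markers 8 fell (median -0.29), with mean levels of 11.47 to 12.13 in TG and 12.07 to 12.33 in WT lungs. That list changed by -0.68 in A/J, -0.54 in C57BL6/J, -0.37 in Balb/cJ, -0.28 in 129, -0.25 in C3H and -0.23 in AKR/J. Of 8 alveolar type 2 markers 1 rose and none fell (median 0.0), and of 7 ciliated markers 2 fell (median -0.15). Of 9 macrophage markers 4 rose (median 0.16). The part of these shifts in the changes of the enzymes was not tested.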

How the data were processed

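Lung RNA from 24 mice was hybridised to whole-transcript arrays after labelling with a kit for whole-transcript amplification, per the labels. The deposited values are 1 log2 intensity per probe set and array, and the sources used here do not give the authors' summarisation, normalization or log base; base 2 was read from their range, 3.41 to 14.75. Of 25285 probe sets, 1 was incomplete. Of the 25284 used, 14539 had 1 gene symbol, 781 several and 9964 none in the platform annotation. Genes were read from single-symbol probe sets, the one of highest mean where a gene had several (3 members), and 7 probe sets shared by several genes stand in the closing section. All 126 members matched RefSeq.

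Tests used limma 3.58.1 in R 4.3.3 (lmFit and eBayes, two-sided), with Benjamini-Hochberg adjustment over 13499 genes and a threshold of 0.05. TG and WT were compared with strain as a fixed effect. Single strains, the F test of strain dependence, the prone minus resistant difference and the level among TG mice came from a fit of 12 group means. Code was tested on simulated data. The members, lists and tests were chosen with earlier results of these data known. Named members were up to 15 each way by change, those called for strain dependence or the prone difference, up to 12 for level, the highest and most changed of each family, and up to 3 each way in each strain. Alternatives were quantile normalization, median centring, only genes above the median gene (8.31), probe set means, a trended robust prior, array weights, a replicate block, strain means and leaving out each mouse or strain. The number of arrays limits precision.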

Additional observations from a re-analysis of the deposited data

Results flagged for a closer look

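The effect of the transgene differed between strains for 6 members by limma's F test over the 6 strain effects, with adjusted p-values of 0.0092 for Cyp4b1, 0.0096 for Gstm6, 0.013 for Aldh3a1, 0.018 for Gsta3, 0.031 for Aldh18a1 and 0.039 for Cyp7b1. For all 6 the largest changes were those of A/J and C57BL6/J. The mean of the club cell markers changed most in the same strains, by -1.12 in A/J and -0.54 in C57BL6/J. So did those of endothelial (-0.68 and -0.54), ciliated (-0.66 and -0.42), heart muscle (-1.44 and -1.07) and macrophage markers (1.01 and 0.57). The alveolar type 2 list moved in opposite directions there (0.22 and -0.24). The fat, alveolar type 1, fibroblast and liver lists had other orders, with fat markers at -1.76 in C3H. The part of these shifts in the differences was not tested.

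Between the prone and resistant sets, the effect differed by -1.03 for Gsta3, -0.79 for Cyp4b1, -0.71 for Gstm6 and 0.46 for Aldh18a1 on the log2 scale. Read by the key of the sample labels, these signs turn. The outlying value of a single mouse could not be tested within groups, which hold 1 to 3 mice.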

How the results depend on the processing

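None of the 34 named changes between TG and WT over all strains turned its sign under the alternatives run. Leaving out each mouse in turn gave 33 to 38 lower and 5 to 8 higher members over all strains, 3 to 7 whose effect depended on strain, 0 to 12 that differed between prone and resistant strains and 32 to 43 whose level differed between strains. Within strains it gave 9 to 14 members in 129, 30 to 35 in A/J, 4 to 10 in AKR/J, 4 to 10 in Balb/cJ, 0 to 5 in C3H and 24 to 37 in C57BL6/J. Where the mouse left out was the 1 WT mouse of its strain, that strain dropped out of the F test and of the prone minus resistant difference. The 8 higher members became 5 with array weights and without strain A/J. They also became 5 with only genes above the median gene, a filter that by itself leaves out 3 of them. With array weights, 3 members depended on strain (Aldh18a1, Aldh3a1 and Cyp7b1 were lost). The A/J WT array had the lowest weight (0.435). In the weighted fit 0 members differed between prone and resistant strains (20 at an unadjusted limma p under 0.05, against 29 in the unweighted fit). It called 21 members in A/J and 3 in AKR/J. The weights were computed with terms for strain and genotype but none for an effect that depends on strain. Arrays of a strain with an unlike effect could so be given less weight, which was not tested. In C3H, 1 member was called with only genes above the median gene, which by itself leaves out Cyp4f15 and Aldh1b1. The count of lower members ran from 24 to 39 over the other settings, and that filter by itself leaves out 13 of them. Of 1036 alternative values for the 28 called members that are named, 994 kept their call and 42 lost it, in Aldh7a1 (24), Gstp3 (8), Cyp4a31 (8) and Cyp4a12b (2). The cause was not tested.

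In C57BL6/J the replicate numbers of the labels gave no sign of pairing between TG and WT mice, since same-numbered mice had deviations correlated at 0.058. With 2 mice in each group this is a single value, which cannot decide the question. In the other strains, with 1 WT mouse each, such pairing could not be checked. With the replicate block, 1 member differed between prone and resistant strains in place of 4 and 1 was called in C3H in place of 3. All strains but C57BL6/J have 1 WT mouse, which limits every statement on a single strain.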

Other observations

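Probe sets that several family members share were kept out of the counts, and 4 of the 7 were called when adjusted over all 25284 probe sets, of which 16.2% were called. The probe set of the Ugt1a group, the shared exons of the glucuronosyltransferases that act on bilirubin and phenols, measured 8.12, 8.43 and 8.58 in TG lungs (lowest, median and highest of 17) and 8.62, 8.82 and 9.20 in WT lungs. The groups did not overlap, and the change was -0.45 ± 0.07 (SE, limma adjusted p = 6.5e-05), although none of the 4 Ugt genes with a probe set of their own was called over all strains. The pair of probe sets shared by Gstp1 and Gstp2 changed by -0.34 ± 0.07 and -0.26 ± 0.06 (adjusted p = 0.0020 and 0.0028), on the same side as Gstp1 alone. The probe set of Aldh3b2 and Aldh3b3 changed by -0.27 ± 0.06 (adjusted p = 0.0035). Of the probe sets of Aldh3b3 alone, the one used changed by -0.19 (limma adjusted p = 0.048). The others changed by 0.004 and 0.12 and were not called. The shared probe sets of Ugt3a1 and Ugt3a2, of a Cyp2c group and of a Cyp4a group were not called.

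Tissue markers outside the lung epithelium also differed. Of 6 heart muscle markers 5 fell (median -0.81), at mean levels of 9.16 to 10.33 in TG and 10.24 to 10.67 in WT lungs, and both fat markers measured fell (median -0.86). Of 6 fibroblast markers 2 rose and 2 fell, and none of 7 alveolar type 1 markers was called.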
